A study of Saccharomyces cerevisiae with 36 samples.

Results

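The ALD family of the budding yeast Saccharomyces cerevisiae comprises the aldehyde dehydrogenase genes ALD2 (YMR170C), ALD3 (YMR169C), ALD4 (YOR374W), ALD5 (YER073W) and ALD6 (YPL061W), together with the fatty aldehyde dehydrogenase gene HFD1 (YMR110C). These 6 genes were taken by name from a table of 6717 features, and all 6 had a mean of at least 1 RPKM, the level required for testing. RNA came from 6 natural isolates grown in 3 media, and each pairing of isolate and medium was sequenced as 2 libraries, which gives 36 in all. SynH is a synthetic lignocellulosic hydrolysate, a mimic of the sugar liquor made from plant biomass, with its toxins. SynH -HTs is that hydrolysate without the toxins, and YPD is a rich laboratory medium. By their labels, 3 isolates resist SynH (Y7568, YPS128 and UWO.S05.22-7), NCYC3290 is of medium resistance, and NCYC361 and K11 are sensitive. All isolates are labelled wild strains, no engineered allele is named, and cells were taken in log phase. The design addresses the response to the toxins (SynH minus SynH -HTs, here the toxin response), the response to the base medium (SynH -HTs minus YPD) and their sum in the complete hydrolysate (SynH minus YPD).

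Aldehyde dehydrogenases oxidise aldehydes to carboxylic acids and pass the electrons to NAD+ or NADP+. In yeast growing on sugar, pyruvate decarboxylase makes acetaldehyde, most of which is reduced to ethanol, while a part is oxidised to acetate, the precursor of cytosolic acetyl-CoA. Ald6 is the main cytosolic enzyme of that step and a source of NADPH, and Ald4 and Ald5 are mitochondrial acetaldehyde dehydrogenases, of which Ald4 is the major one and is known as repressed by glucose. Ald2 and Ald3 are cytosolic enzymes that oxidise 3-aminopropanal to beta-alanine, a building block of pantothenate and coenzyme A, and their genes are known as stress-induced. Hfd1 oxidises long-chain aldehydes from sphingolipid breakdown and 4-hydroxybenzaldehyde on the way to ubiquinone.

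The genes lie at 5 places in the genome, each with a single coding exon and no overlapping gene in the RefSeq annotation of build R64. Whether the reads were aligned to that build is not stated. ALD2 (chrXIII:601562-603082) and ALD3 (chrXIII:599352-600872) are a tandem pair on the minus strand, 689 bases apart. HFD1 (chrXIII:490394-491992, minus strand) is on the same chromosome, ALD4 (chrXV:1039840-1041399) and ALD6 (chrXVI:432588-434090) are on the plus strand, and so is ALD5 (chrV:304030-305592). ALD2 and ALD3 are identical at 1396 of 1521 coding bases (91.8%), and all other pairs of members are identical at 55.9 to 65.2% of aligned bases. The first 329 coding bases of ALD2 and ALD3 are the same. Of the 100-base stretches of ALD2, 22.5% also occur in ALD3. Coding bases 271 to 390 of both genes are shown because they hold the end of that identical run, with capitals at the 16 bases that differ (R64, minus strand, ALD2 chrXIII:602693-602812 and ALD3 chrXIII:600483-600602).
ALD2: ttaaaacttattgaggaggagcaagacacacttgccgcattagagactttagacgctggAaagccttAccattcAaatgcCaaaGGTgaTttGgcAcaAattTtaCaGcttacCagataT
ALD3: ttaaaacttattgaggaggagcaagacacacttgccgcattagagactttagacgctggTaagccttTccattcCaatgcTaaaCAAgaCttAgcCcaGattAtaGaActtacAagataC
A read that falls wholly within an identical stretch cannot be told apart between these genes. The counting of such reads is not described in the labels. The values of ALD2 and ALD3 are uncertain to that extent, and a sum of both is given beside them.

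The stress response element AGGGG, searched on both strands in the 300 bases before each start codon, occurs in 22.2% of 6007 yeast genes. It was found in ALD3, ALD4, ALD5 and ALD6, and not in these windows of ALD2 and HFD1. In ALD4, ALD5 and ALD6, the genes of the acetaldehyde to acetate step, it stands within the longer GAGGGG (a motif bound by Haa1), which occurs in 5.3% of the windows. The 30 bases on each side are shown for these genes, with the motif in capitals (RefSeq R64). The positions are chrXIII:601077-601141 on the minus strand for ALD3, and on the plus strand chrXV:1039617-1039682 for ALD4, chrV:303736-303801 for ALD5 and chrXVI:432308-432373 for ALD6.
ALD3: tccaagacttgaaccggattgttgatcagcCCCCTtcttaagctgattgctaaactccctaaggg
ALD4: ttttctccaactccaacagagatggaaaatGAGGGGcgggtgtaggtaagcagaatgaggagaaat
ALD5: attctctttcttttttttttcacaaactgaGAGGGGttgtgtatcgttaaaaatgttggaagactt
ALD6: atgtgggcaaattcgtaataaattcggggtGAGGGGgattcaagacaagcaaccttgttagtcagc
In ALD3 the element is printed as CCCCT because it lies on the other strand. A Gis1 type motif, AGGGAT, present in 9.2% of the windows, was found once each in ALD2, ALD3 and HFD1, and in none of the other members. ALD2 also held CCAAT, the Hap complex motif, at 2 places (41.8% of windows hold it), and ALD3 held TTACTAA, a Yap1 type motif (7.8%). These matches describe the R64 sequence and not the 6 isolates.

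Libraries held 2203554 to 32828574 reads in genes. YPS128 in SynH replicate 2 was the deepest, and the next held 8042352. The 2 replicates of SynH -HTs differed from each other in a like manner in every strain. Their difference across all features correlated between strains at 0.43 to 0.72, with -0.08 to 0.63 in SynH and -0.18 to 0.27 in YPD, which does not show which replicate departs. ALD5 was lower in SynH -HTs replicate 2 in all 6 strains (log2 differences of -0.77 to -0.14), and so was HFD1 (-0.53 to -0.02). In SynH, ALD5, ALD6 and HFD1 were higher in replicate 2 in all 6 strains. Calls that change when either SynH -HTs replicate is left out are given below, those within strains together after the members. RPKM are read numbers divided by the length of the gene and the size of the library, and the deposited values include 1 added read per gene. For genes with few reads this can shrink differences, and it can also make differences that follow library size. In a gene of 1 kb, 1 read was worth 0.0223 RPKM in YPS128 SynH replicate 2 and 0.311 RPKM in K11 SynH replicate 1. Total RNA per cell was not measured, so levels are relative to each library's total.

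The family was dominated by ALD6 in every medium. Per length, ALD6 supplied a median of 66.8% of the summed RPKM of the family in SynH (range 35.6 to 85.7%), 76.0% in SynH -HTs (34.3 to 87.9%) and 87.7% in YPD (58.3 to 93.0%), over 12 libraries each. ALD5 was next, with a median of 16.3% in SynH, 12.6% in SynH -HTs and 4.8% in YPD, and HFD1 made up 10.6% in SynH and 3.05% in YPD. ALD2 and ALD3 had the lowest median levels in each medium, at no more than 1.2% and 1.5% of the sum in any SynH library. In SynH -HTs their shares reached 2.2% and 3.1%. In NCYC3290 in SynH -HTs both were above ALD4, with means of 4.93 (ALD2), 3.77 (ALD3) and 0.962 RPKM (ALD4). The summed level was 239.8 to 1342 RPKM in SynH, 193 to 681 RPKM in SynH -HTs and 787 to 2306 RPKM in YPD. All 12 SynH -HTs libraries lay below all 12 YPD libraries in this sum, while SynH overlapped both. Among single features, 0.911% did not overlap between SynH -HTs and YPD, in either direction. ALD6 alone did overlap, at up to 563.4 RPKM in SynH -HTs and down to 547.0 RPKM in YPD.

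**Figure D1:**
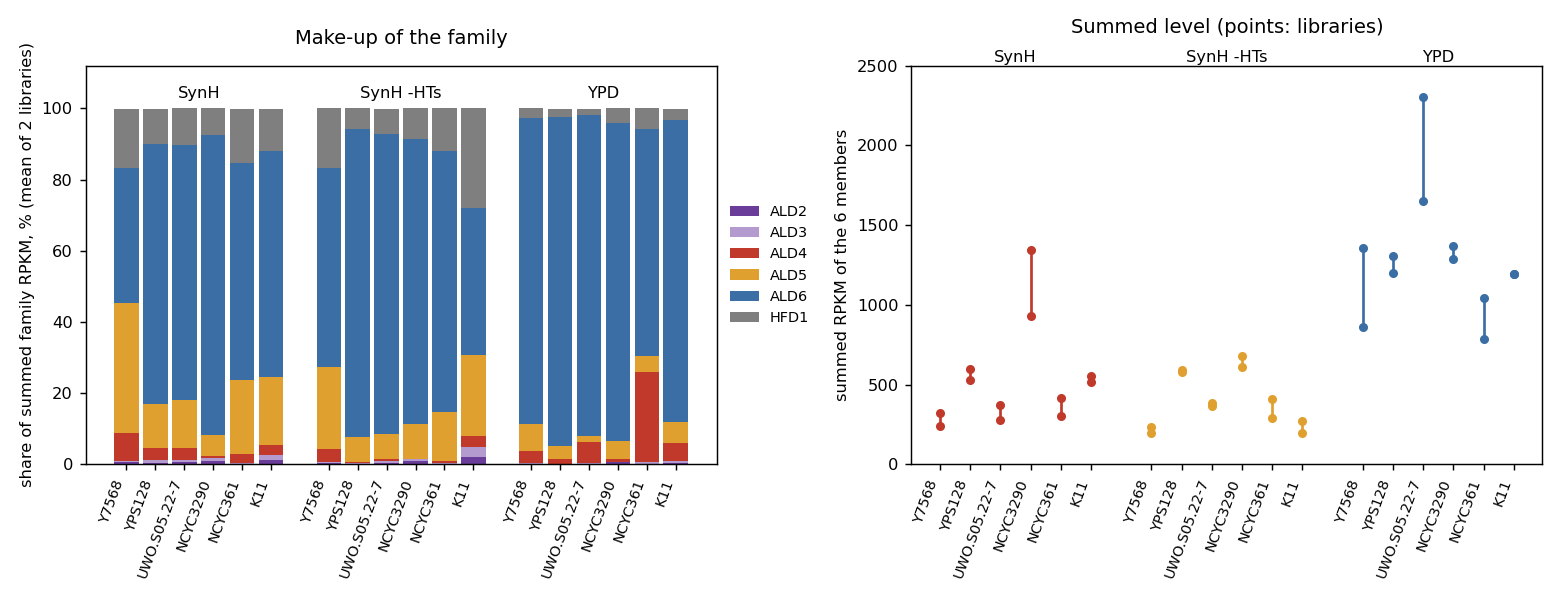
Left, the mean share of each member in the summed RPKM of the family (%, 2 libraries per bar), by strain in SynH, SynH -HTs and YPD. Right, the summed RPKM of the 6 members, with a point for each library: the SynH -HTs libraries sit between 193 and 681, all below the YPD libraries at 787 to 2306.

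In some strains the make-up was different. In Y7568 in SynH, ALD5 reached 37.4% and 35.8% of the sum, about as much as ALD6 with 35.6% and 40.2%. In K11 in SynH -HTs, HFD1 supplied 23.4% and 32.5%, the highest shares of that gene in any library. In NCYC361 in YPD, ALD4 supplied 18.3% and 32.1%, above its share in the other 34 libraries. The ratio of ALD6 to ALD4 had a median of 21.5 in SynH, 130.4 in SynH -HTs and 25.8 in YPD, and ran from 1.82 (NCYC361 in YPD) to 644 (NCYC3290 in SynH -HTs).

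**Figure D2:**
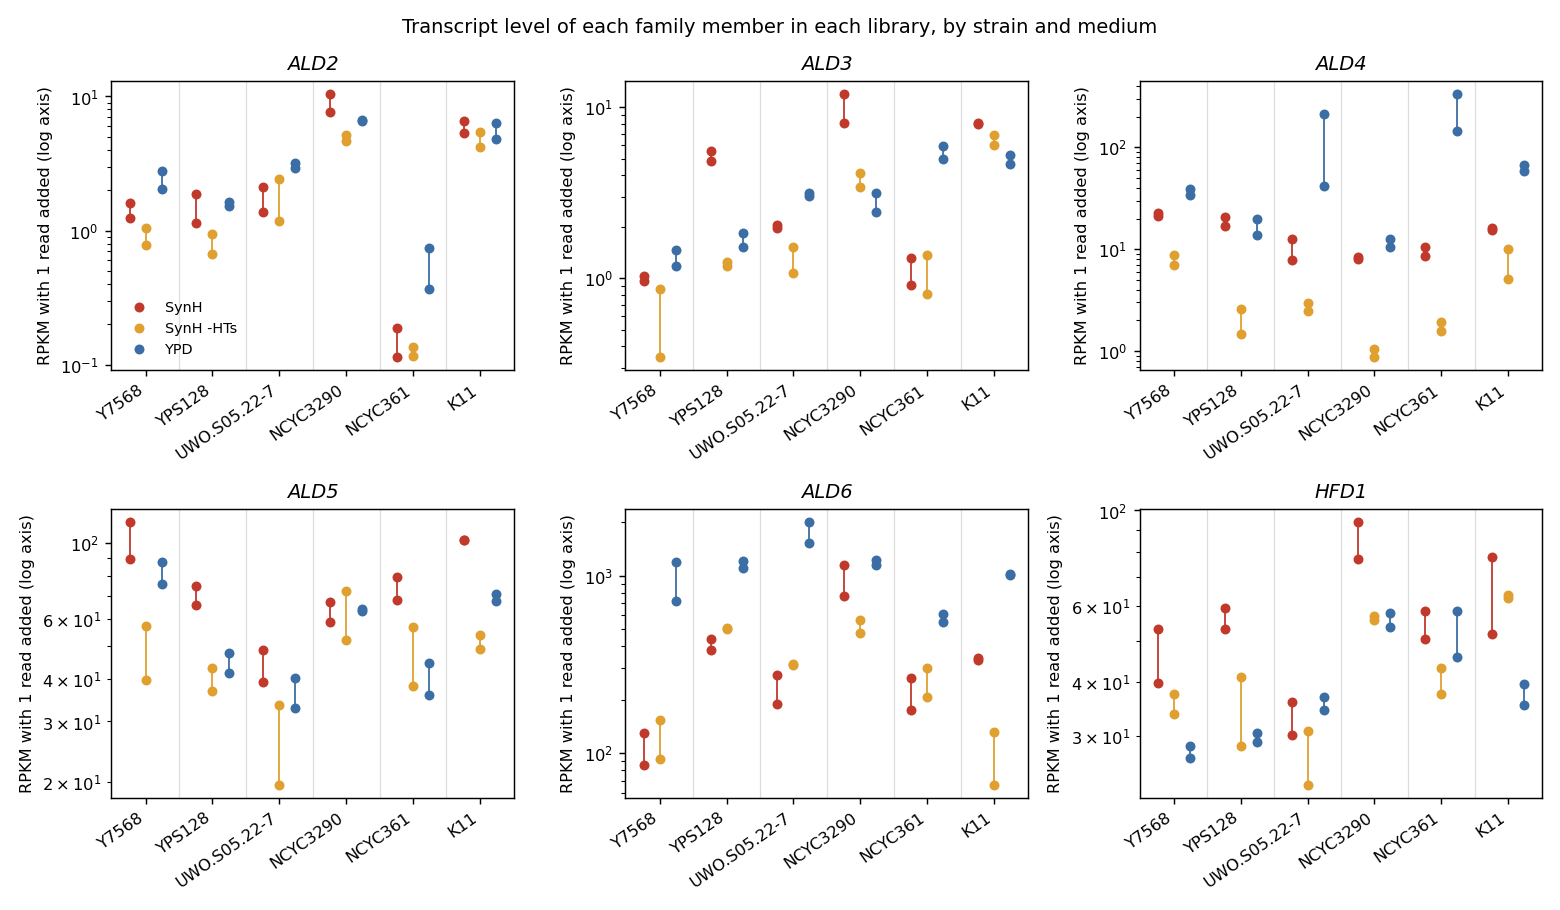
RPKM with 1 read added (log axis) of each member, with a point for each library and a line joining the 2 libraries of a strain and medium, SynH, SynH -HTs and YPD from left to right. ALD4 was lowest in SynH -HTs in each strain, and ALD6 was highest in YPD, although the nearest SynH and YPD libraries of NCYC3290 were almost equal (1149.8 and 1150.3 RPKM).

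Averaged over the 6 strains, 5 members rose in SynH against SynH -HTs and none fell. ALD4 rose most, by 4.66-fold, followed by ALD3 (1.86-fold), ALD5 (1.66-fold), ALD2 (1.4-fold) and HFD1 (1.32-fold). ALD6, the most abundant member, did not pass (log2 change 0.26 ± 0.13 SE, limma with Benjamini-Hochberg adjusted p = 0.136). Of all 5927 features tested, 29.6% passed, 19.1% higher and 10.6% lower. That background was not stable: 3163 features were higher and 544 lower without SynH -HTs replicate 1, 932 higher and 2064 lower without replicate 2, and 1036 higher and 1215 lower after quantile normalization. The median log2 change of the 6 members was 0.61, against 0.09 over all features. The log2 changes were 2.22 ± 0.21 for ALD4 (adjusted p = 1.14e-08), 0.89 ± 0.16 for ALD3 (adjusted p = 0.00011), 0.73 ± 0.10 for ALD5 (adjusted p = 3.86e-06), 0.49 ± 0.18 for ALD2 (adjusted p = 0.0398) and 0.40 ± 0.09 for HFD1 (adjusted p = 0.000917). These standard errors treat the 12 libraries of a medium as 12 samples. With the strain as the unit, ALD2 did not pass (limma adjusted p = 0.086). When the 6 strains were first averaged for each medium and replicate number, which leaves 2 values per medium, ALD4 alone passed (adjusted p = 0.0106).

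**Figure D3:**
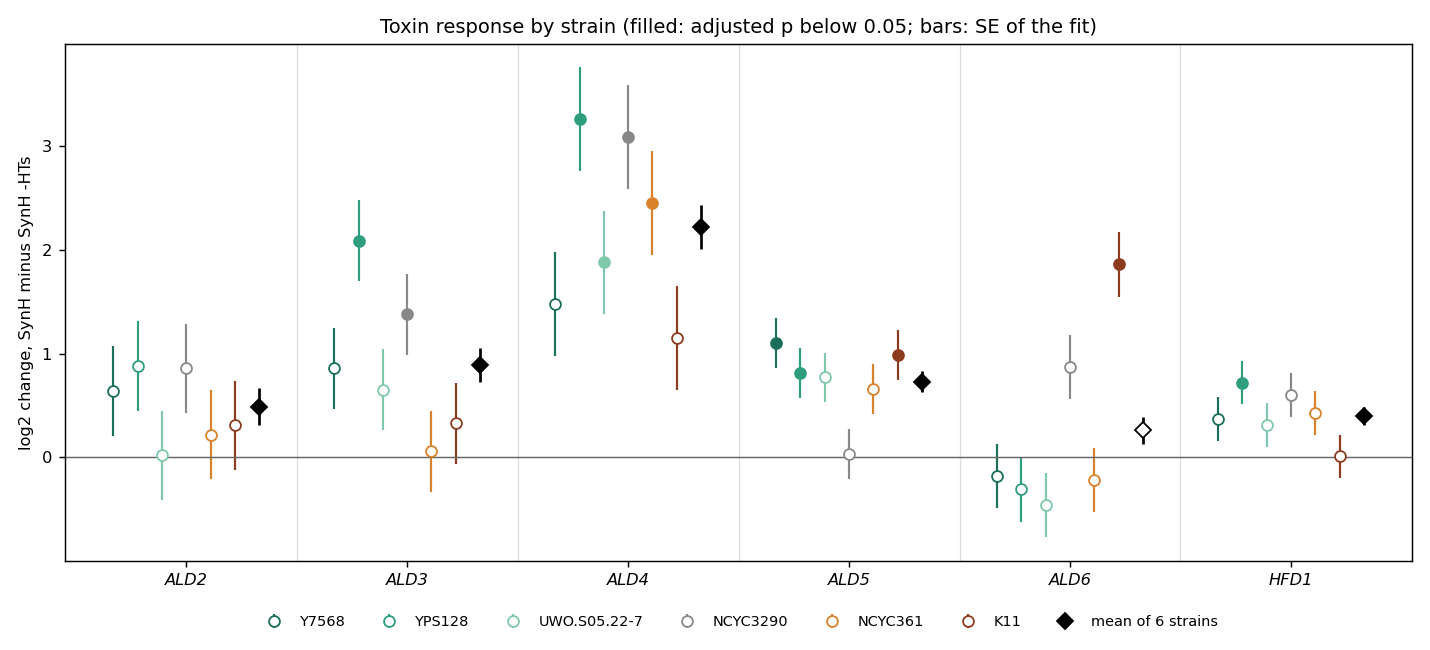
Log2 change of each member, SynH minus SynH -HTs, with 1 circle per strain and a diamond for the mean of 6 strains; bars are standard errors of the fit and filled symbols have an adjusted p below 0.05. ALD4 lay at 1.15 or more in each strain, while ALD6 ran from -0.46 (UWO.S05.22-7) to 1.86 (K11).

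In the base medium comparison, averaged over strains, 5 members fell in SynH -HTs against YPD and none rose. ALD4 fell 16.2-fold and ALD6 4.22-fold, ahead of ALD2 (1.99-fold), ALD3 (1.69-fold) and ALD5 (1.22-fold). HFD1 did not pass (0.09 ± 0.09, limma adjusted p = 0.399). Of all features 45.2% passed, 38.4% lower and 6.78% higher, with a median log2 change of -0.31 over all features and -0.88 over the members. The preponderance of lower features depended on the scaling, with 1190 higher and 1088 lower after quantile normalization and 1458 higher and 967 lower after median subtraction, and on the replicate, with 4038 lower without SynH -HTs replicate 1 and 1148 without replicate 2. The log2 changes were -4.02 ± 0.21 for ALD4 (adjusted p = 2.35e-13), -2.08 ± 0.13 for ALD6 (adjusted p = 5.72e-12), -0.99 ± 0.18 for ALD2 (adjusted p = 0.000109), -0.76 ± 0.16 for ALD3 (adjusted p = 0.000599) and -0.29 ± 0.10 for ALD5 (adjusted p = 0.0239). With each library's median subtracted, ALD4 was at -3.64 and ALD6 at -1.70, both still past the threshold. On that scale ALD5 was at 0.09 (adjusted p = 0.354), ALD3 at -0.39 (adjusted p = 0.0591) and HFD1 at 0.47 (adjusted p = 0.000582), so that the direction of ALD5 and the calls of ALD3 and HFD1 depend on the scaling. With the strain as the unit ALD4 and ALD6 alone passed, and ALD2 (adjusted p = 0.0832), ALD3 (0.231) and ALD5 (0.239) did not. The same 2 passed when strains were first averaged by medium and replicate number.

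**Figure D4:**
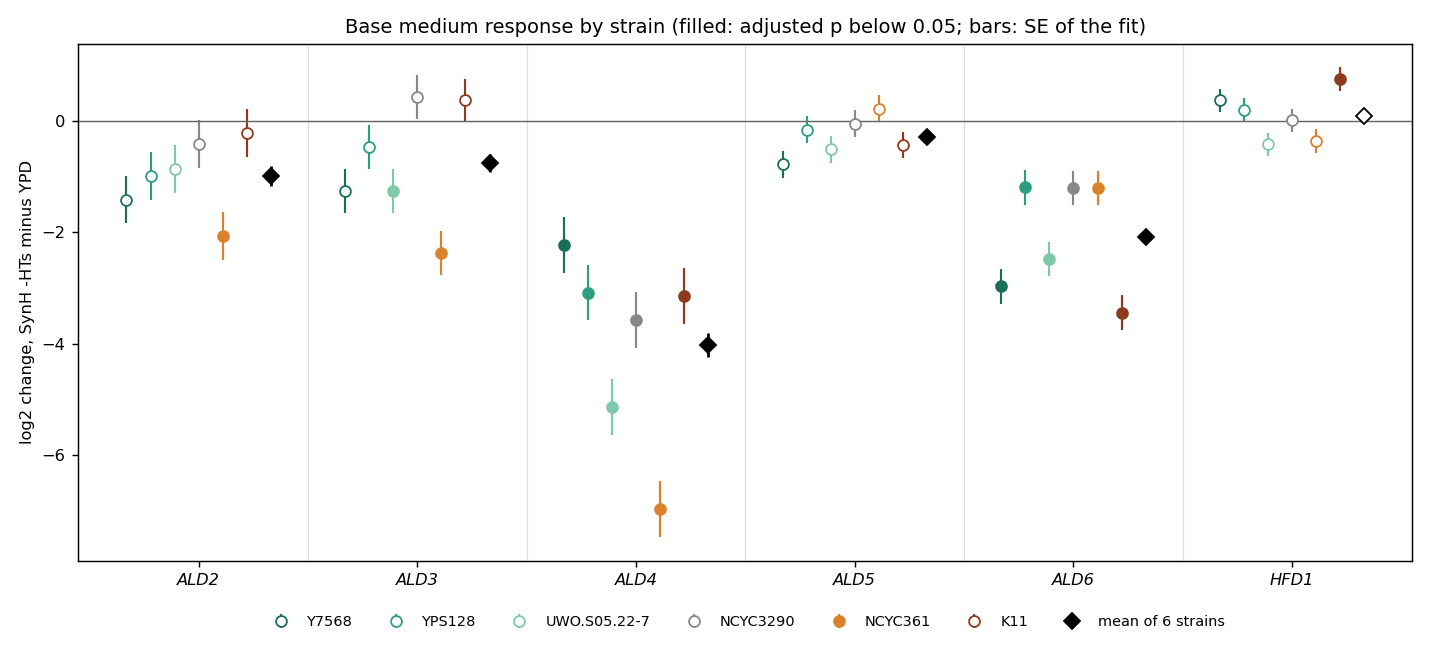
Log2 change of each member, SynH -HTs minus YPD, with symbols as in the plot of the toxin response. ALD4 (-6.97 to -2.22) and ALD6 (-3.44 to -1.19) were below 0 and past the threshold in all 6 strains.

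In the complete hydrolysate against YPD, ALD6, ALD4 and ALD2 fell and ALD5 and HFD1 rose. ALD6 was 3.53-fold lower (-1.82 ± 0.13, limma adjusted p = 3.24e-11) and ALD4 3.48-fold lower (-1.80 ± 0.21, adjusted p = 1.58e-07). HFD1 was 1.41-fold higher (0.50 ± 0.09, adjusted p = 6.23e-05) and ALD5 1.36-fold higher (0.44 ± 0.10, adjusted p = 0.000808). ALD2 was at -0.50 ± 0.18 (adjusted p = 0.0223) and ALD3 at 0.14 ± 0.16 (adjusted p = 0.501). With the strain as the unit, ALD2 (adjusted p = 0.291) and HFD1 (adjusted p = 0.0554) did not pass. With strains averaged by medium and replicate number, ALD4 and ALD6 alone did (adjusted p = 0.344 for ALD2, 0.254 for ALD5 and 0.194 for HFD1), and after median subtraction ALD2 did not (-0.26, adjusted p = 0.274). Thus 5 of 6 members passed, as did 48.7% of all features (14.4% higher, 34.2% lower). The complete response is the sum of the other 2 and shares their samples. For ALD4 it was made of a fall of 4.02 in the base medium and a rise of 2.22 with the toxins, both on the log2 scale. The complete response differed among strains for 4 members, ALD3, ALD4, ALD6 and HFD1 (F tests, limma adjusted p = 2e-05, 8.21e-05, 0.000158 and 0.048 in that order), as for 26.1% of features. The call of HFD1 was lost in 27 of 36 fits without 1 library. The mean of ALD3 hides opposite calls: it rose in YPS128 (1.62, adjusted p = 0.00478) and NCYC3290 (1.81, adjusted p = 0.00218) and fell in NCYC361 (-2.31, adjusted p = 6.15e-05). The calls of ALD3 were lost in YPS128 without its YPD replicate 1 (1.48, adjusted p = 0.0657) and in NCYC3290 without its SynH replicate 2 (1.53, adjusted p = 0.0574).

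ALD4, the major mitochondrial acetaldehyde dehydrogenase gene, was the member that varied most between media. In YPS128 it had 20.6 and 17.1 RPKM in SynH, 1.48 and 2.59 RPKM in SynH -HTs and 13.8 and 19.8 RPKM in YPD. The SynH and YPD libraries of YPS128 overlapped, and those of SynH -HTs lay far below both. NCYC3290 had the lowest mean ALD4 level in each medium, with 7.99 and 8.37 RPKM in SynH, 1.05 and 0.874 RPKM in SynH -HTs and 12.5 and 10.4 RPKM in YPD. In SynH, replicate 2 of UWO.S05.22-7 was lower still (7.90 RPKM). The SynH -HTs values of NCYC3290 rest on 5 and 9 reads. Y7568 had 22.6 and 21.3 RPKM in SynH, 8.85 and 6.99 RPKM in SynH -HTs and 34.2 and 39.4 RPKM in YPD. In K11 the values were 15.3 and 16.3 RPKM in SynH, 9.99 and 5.05 RPKM in SynH -HTs and 58.6 and 67.0 RPKM in YPD. Each strain so far kept the order of SynH -HTs lowest, and Y7568 and K11 kept the most ALD4 RNA in that medium.

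NCYC361, a sensitive strain, spanned the widest range of ALD4. It had 8.55 and 10.6 RPKM in SynH, 1.92 and 1.59 RPKM in SynH -HTs and 144.0 and 333 RPKM in YPD. Its fall in SynH -HTs against YPD was 125-fold (-6.97 ± 0.50, limma adjusted p = 1.46e-10), with -7.58 without YPD replicate 1 and -6.36 without YPD replicate 2, in a strain where 44.6% of all features fell and their median was -0.89. In UWO.S05.22-7, ALD4 had 12.6 and 7.90 RPKM in SynH and 2.99 and 2.46 RPKM in SynH -HTs. The YPD libraries of UWO.S05.22-7 differed 5.15-fold from each other (215 and 41.7 RPKM, from 1195 and 465 reads), and the base medium change of -5.13 there became -3.94 without YPD replicate 1 and -6.31 without YPD replicate 2. SynH libraries of ALD4 lay above the SynH -HTs libraries of the same strain in 6 of 6 strains, which held for 4.47% of all features. The 12 SynH -HTs libraries also lay below all 12 YPD libraries, as was so, in either direction, for 0.911% of features.

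Within strains, the ALD4 toxin response passed in YPS128 (3.26 ± 0.50), NCYC3290 (3.09 ± 0.50), NCYC361 (2.45 ± 0.50) and UWO.S05.22-7 (1.88 ± 0.50), with limma adjusted p of 0.000119, 0.000308, 0.0017 and 0.0436 in that order. It did not pass in Y7568 (1.48, adjusted p = 0.0941) or K11 (1.15, adjusted p = 0.279). A difference of this response among strains was not detected (F test over 6 strains, limma adjusted p = 0.496). The call in UWO.S05.22-7 was lost in 24 of the 36 fits that left out 1 library. With voom on recovered reads the calls in NCYC3290 (adjusted p = 0.061), NCYC361 (0.112) and UWO.S05.22-7 (0.288) were lost. The base medium response of ALD4 passed in all 6 strains, at -2.22 in Y7568, -3.08 in YPS128, -5.13 in UWO.S05.22-7, -3.57 in NCYC3290, -6.97 in NCYC361 and -3.14 in K11. These values did differ among strains (F test, limma adjusted p = 0.000126), as did those of 4 of the 6 members and of 29.6% of all features. The call in Y7568 was lost without SynH -HTs replicate 2 of that strain (-2.05, adjusted p = 0.0906) and without its YPD replicate 2 (-2.12, adjusted p = 0.0936).

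ALD6, the main cytosolic acetaldehyde dehydrogenase gene, fell in the base medium in every strain and responded to the toxins differently among strains. In K11 it had 335 and 344 RPKM in SynH, 132 and 66.4 RPKM in SynH -HTs and 1024 and 1003 RPKM in YPD. K11 was thus lowest in SynH -HTs, where its replicates differed 1.99-fold, and intermediate in SynH. NCYC3290 had 772 and 1149.8 RPKM in SynH, 473 and 563 RPKM in SynH -HTs and 1150.3 and 1225 RPKM in YPD. The SynH libraries of NCYC3290 were the highest of any strain in that medium. The resistant YPS128 had 381 and 437 RPKM in SynH, 503 and 507 RPKM in SynH -HTs and 1109.8 and 1203 RPKM in YPD. UWO.S05.22-7 had 189.9 and 276 RPKM in SynH, 313 and 318 RPKM in SynH -HTs and 2008 and 1534 RPKM in YPD. In both of these strains SynH lay below SynH -HTs without overlap, opposite to K11 and NCYC3290. These media did not overlap, in either direction, in 34.2% of all combinations of feature and strain. Neither fall passed (limma adjusted p = 0.72 in YPS128 and 0.693 in UWO.S05.22-7).

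The remaining strains showed little change of ALD6 with the toxins. Y7568 had 85.4 and 129 RPKM in SynH, 92.5 and 153 RPKM in SynH -HTs and 722 and 1198.5 RPKM in YPD. NCYC361 had 176 and 264 RPKM in SynH, 303 and 208 RPKM in SynH -HTs and 547 and 606 RPKM in YPD. The SynH and SynH -HTs libraries overlapped in both strains, and those of YPD were higher. The toxin response of ALD6 passed in K11 alone (1.86 ± 0.31, 3.63-fold higher, limma adjusted p = 0.000691), in each of the settings tried. In NCYC3290 it was 0.87 (adjusted p = 0.125), and in the other strains it was -0.46 to -0.18. The F test over strains passed (limma adjusted p = 0.00882), as it did for 2.38% of all features, and no other member passed it. It did not pass without SynH -HTs replicate 2 of K11 (adjusted p = 0.0607) or without all 6 such libraries (adjusted p = 0.0628), so this difference rests in part on 1 library. The averaged toxin response of ALD6 passed without SynH -HTs replicate 1 (0.30, adjusted p = 0.0434) and without K11 SynH -HTs replicate 1 (0.34, adjusted p = 0.0326).

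The base medium fall of ALD6 was largest in K11 (-3.44 ± 0.31, 10.8-fold), Y7568 (-2.97, 7.82-fold) and UWO.S05.22-7 (-2.48, 5.56-fold). It was -1.19 in YPS128 and -1.2 in both NCYC3290 and NCYC361, 2.29 to 2.30-fold. All 6 passed, and they differed among strains (F test, limma adjusted p = 0.000244). The SynH -HTs libraries lay below the YPD libraries in 6 of 6 strains, which held for 3.88% of all features. With each library's median subtracted the change in NCYC361 was -0.11 (adjusted p = 0.83), in YPS128 -0.90 (adjusted p = 0.198) and in NCYC3290 -0.92 (adjusted p = 0.246). In the first 3 strains it passed in every setting. The YPS128 and NCYC3290 calls were also lost when any 1 of the 4 libraries compared was left out, and that of NCYC361 without its SynH -HTs replicate 2 (-0.92, adjusted p = 0.0626).

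ALD5, the minor mitochondrial acetaldehyde dehydrogenase gene, rose with the toxins on average, while its base medium change turned on the scaling. Y7568 had 89.8 and 115 RPKM in SynH, 56.9 and 39.6 RPKM in SynH -HTs and 75.7 and 88.0 RPKM in YPD. K11 had 102 and 102 RPKM in SynH, 53.8 and 48.9 RPKM in SynH -HTs and 67.5 and 70.9 RPKM in YPD. In both strains SynH was highest and SynH -HTs lowest without overlap. Of all combinations of feature and strain, 34.2% did not overlap between SynH and SynH -HTs. The shares were 52.3% for SynH -HTs and YPD and 65.6% for SynH and YPD. The ALD5 falls in SynH -HTs against YPD did not pass (limma adjusted p = 0.0717 in Y7568 and 0.319 in K11). YPS128 had 65.7 and 74.6 RPKM in SynH, 43.1 and 36.8 RPKM in SynH -HTs and 41.5 and 47.6 RPKM in YPD. NCYC361 had 68.2 and 79.4 RPKM in SynH, 56.7 and 38.2 RPKM in SynH -HTs and 44.5 and 35.8 RPKM in YPD. In these strains SynH was above the other media, which overlapped each other. UWO.S05.22-7, with the lowest mean ALD5 level in each medium, had 39.1 and 48.6 RPKM in SynH, 33.5 and 19.6 RPKM in SynH -HTs and 40.3 and 32.9 RPKM in YPD. NCYC3290 had 58.5 and 67.1 RPKM in SynH, 72.1 and 51.9 RPKM in SynH -HTs and a mean of 63.5 ± 0.628 RPKM in YPD (SD, n = 2), so its media overlapped.

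Within strains, the ALD5 toxin response passed in Y7568 (1.10, 2.14-fold), K11 (0.99, 1.99-fold) and YPS128 (0.81, 1.76-fold), with limma adjusted p of 0.00511, 0.0196 and 0.0438 in that order. Of the 36 fits without 1 library, 2 lost the call in Y7568, 4 that in K11 and 20 that in YPS128. It was 0.77 in UWO.S05.22-7 (adjusted p = 0.106), 0.66 in NCYC361 (adjusted p = 0.0975) and 0.03 in NCYC3290 (adjusted p = 0.974). UWO.S05.22-7 and NCYC361 passed without SynH -HTs replicate 1 (1.15, adjusted p = 0.00171, and 0.94, adjusted p = 0.00399) and after quantile normalization (0.60, adjusted p = 0.0274, and 0.48, adjusted p = 0.0332). No difference among strains was detected (F test, limma adjusted p = 0.753), although the F test passed after quantile normalization (adjusted p = 0.00566) and after median subtraction (adjusted p = 0.0357). The averaged toxin response was 0.50 with SynH -HTs replicate 1 alone (adjusted p = 9.75e-05) and 0.95 with replicate 2 alone (adjusted p = 4.06e-08). In the base medium comparison the averaged change was -0.06 with replicate 1 alone (adjusted p = 0.648) and -0.51 with replicate 2 alone (adjusted p = 3.13e-05), so that call rests on replicate 2. The base medium responses of ALD5 did not pass the F test over strains (limma adjusted p = 0.205), but did after quantile normalization (4.37e-06) and median subtraction (2.66e-05). On those scales ALD5 was higher in NCYC361 (1.09, adjusted p = 2.06e-06, and 1.31, adjusted p = 4.04e-06) and lower in K11 (-0.63, adjusted p = 0.00339, and -0.70, adjusted p = 0.0122).

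**Figure D5:**
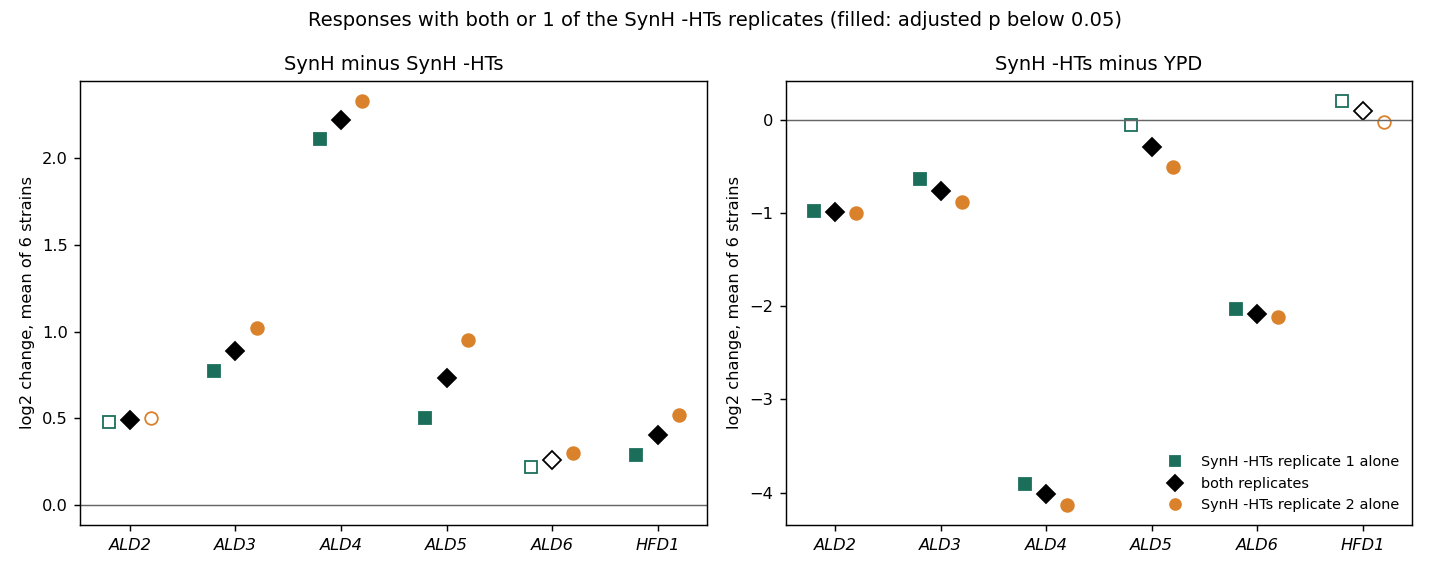
Log2 change averaged over 6 strains, SynH minus SynH -HTs (left) and SynH -HTs minus YPD (right), with both SynH -HTs replicates or 1 of them; filled symbols have an adjusted p below 0.05. ALD4 and ALD6 moved little on the right (-4.13 to -3.91 and -2.12 to -2.03), whereas ALD5 was at -0.06 with replicate 1 and -0.51 with replicate 2.

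ALD3, of the beta-alanine pathway, passed for the toxin response in YPS128 and NCYC3290, higher in both. YPS128 had 5.53 and 4.83 RPKM in SynH, 1.18 and 1.25 RPKM in SynH -HTs and 1.52 and 1.85 RPKM in YPD. NCYC3290 had 8.03 and 11.9 RPKM in SynH, 4.13 and 3.41 RPKM in SynH -HTs and 2.45 and 3.15 RPKM in YPD. In both strains SynH was the highest medium. K11 had 7.97 and 8.07 RPKM in SynH, 6.83 and 5.98 RPKM in SynH -HTs and a mean of 4.95 ± 0.388 RPKM in YPD (SD, n = 2), with SynH highest and YPD lowest. UWO.S05.22-7 had 2.05 and 1.98 RPKM in SynH, 1.53 and 1.08 RPKM in SynH -HTs and 3.13 and 3.03 RPKM in YPD. NCYC361 had 0.911 and 1.32 RPKM in SynH, 0.811 and 1.36 RPKM in SynH -HTs and 4.96 and 5.93 RPKM in YPD. In these strains YPD was the highest medium instead. Non-overlap was seen in 34.2% of all combinations of feature and strain for SynH and SynH -HTs. It was seen in 52.3% for SynH -HTs and YPD and in 65.6% for SynH and YPD. Y7568 had the lowest mean in each medium, although its libraries overlapped those of NCYC361 in SynH and in SynH -HTs. Its values were 0.959 and 1.03 RPKM in SynH, 0.865 and 0.347 RPKM in SynH -HTs and 1.18 and 1.46 RPKM in YPD, from 2 to 14 reads a library.

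The ALD3 toxin response passed in YPS128 (2.09 ± 0.39, 4.26-fold, limma adjusted p = 0.000931) in each of the settings tried, and in NCYC3290 (1.38 ± 0.39, 2.61-fold, adjusted p = 0.0383). The call in NCYC3290 was lost when any 1 of its 4 hydrolysate libraries was left out. No difference of the toxin response among strains was detected (F test, limma adjusted p = 0.303), although the F test passed with log2(RPKM + 1) (adjusted p = 0.0257). In the base medium comparison ALD3 fell in NCYC361 (-2.37 ± 0.39, 5.16-fold, adjusted p = 2.93e-05) and in UWO.S05.22-7 (-1.26, adjusted p = 0.0404), and stood at 0.43 in NCYC3290 and 0.37 in K11. After quantile normalization neither fall passed (-0.83, adjusted p = 0.115 in NCYC361 and -0.46, adjusted p = 0.633 in UWO.S05.22-7). The call in UWO.S05.22-7 was also lost after median subtraction (-0.60, adjusted p = 0.408) and in 5 of 36 fits without 1 library. These responses differed among strains (F test, limma adjusted p = 0.00168), but not past the threshold after quantile normalization (adjusted p = 0.139) or median subtraction (adjusted p = 0.0513). Averaged over the 5 strains other than NCYC361, the base medium change of ALD3 was -0.44 (adjusted p = 0.066) and the complete change 0.62 (adjusted p = 0.0054).

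ALD2, the tandem partner of ALD3, had levels that differed widely between strains. Over 12 libraries each it ranged from 0.114 to 10.4 RPKM in SynH (median 1.74), from 0.116 to 5.43 RPKM in SynH -HTs (median 1.10) and from 0.367 to 6.66 RPKM in YPD (median 2.87). NCYC3290 and K11 were the highest strains in each medium, at 4.84 RPKM or more in every YPD library. In NCYC361, ALD2 had 0 reads in all 4 hydrolysate libraries and 1 and 4 reads in YPD. A count of 0 allows up to 3 reads, which is 0.342 and 0.565 RPKM in its SynH libraries and 0.348 and 0.408 RPKM in its SynH -HTs libraries, by counting error alone. No fold is therefore given for ALD2 in NCYC361. ALD3 in the same libraries had 6 to 39 reads. The mean ALD2 level over the media differed among strains (F test, limma adjusted p = 4.13e-13), as did that of all 6 members and of 68.8% of features.

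No within-strain toxin response of ALD2 passed, with log2 changes of 0.02 (UWO.S05.22-7) to 0.88 (YPS128). The averaged rise was weakly held: without either SynH -HTs replicate it did not pass (adjusted p = 0.0627 without replicate 1 and 0.0912 without replicate 2), nor after median subtraction (0.36, adjusted p = 0.151). It also failed in 13 of 36 fits that left out 1 library. Over the 5 strains with reads it was 0.54 (adjusted p = 0.0432). The averaged fall in the base medium was -0.78 over those 5 strains (adjusted p = 0.00413), and the complete change was -0.24 (adjusted p = 0.35). With the reads of ALD2 and ALD3 summed, the toxin response was 0.73 ± 0.14 (limma adjusted p = 0.000235), the base medium response -0.95 ± 0.14 (adjusted p = 8.97e-06) and the complete response -0.22 ± 0.14 (adjusted p = 0.194). Within strains the summed toxin response passed in YPS128 alone (1.83, adjusted p = 0.000846). In the base medium the sum passed in Y7568 (-1.35, adjusted p = 0.0173), UWO.S05.22-7 (-1.06, adjusted p = 0.0476) and NCYC361 (-2.46, adjusted p = 2.82e-06). The summed base medium responses differed among strains (F test, limma adjusted p = 0.00206).

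HFD1, the fatty aldehyde dehydrogenase gene, varied least of the members as a ratio of the highest to the lowest level over all 36 libraries. It ranged from 30.3 to 94.1 RPKM in SynH (median 53.3), from 23.2 to 63.6 RPKM in SynH -HTs (median 39.5) and from 26.8 to 58.4 RPKM in YPD (median 36.3). By mean level NCYC3290 was the highest strain in SynH, with 77.4 and 94.1 RPKM, and K11 in SynH -HTs, with 63.6 and 62.8 RPKM. The toxin response passed in YPS128 alone (0.72 ± 0.21, 1.65-fold, limma adjusted p = 0.0433), a call lost in 19 of 36 fits without 1 library. In K11 it was 0.01 (adjusted p = 0.992). The base medium response passed in K11 alone (0.75 ± 0.21, 1.68-fold higher, adjusted p = 0.0227), where YPD gave 35.5 and 39.7 RPKM, and this call was lost without any 1 of the 4 libraries compared. HFD1 base medium responses differed among strains (F test, limma adjusted p = 0.0269), but did not pass without SynH -HTs replicate 2 (adjusted p = 0.109) or after median subtraction (adjusted p = 0.858). That test was also lost without NCYC361 YPD replicate 2, NCYC361 SynH -HTs replicate 2, UWO.S05.22-7 YPD replicate 1, K11 YPD replicate 1 or either K11 SynH -HTs library (adjusted p = 0.059 to 0.0886).

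Over the 36 combinations of member and strain, the toxin response passed in 11, all higher, against 5.94% of all combinations of feature and strain (4.75% higher). The base medium response passed in 16, of which 15 were lower and 1 higher, against 15.1% (11.2% lower, 3.90% higher). The complete response passed in 16, of which 10 were lower and 6 higher, against 19.7% (12.1% lower, 7.66% higher). The lower calls in the base medium and complete counts take in ALD2 in NCYC361, which had 0 reads in its hydrolysate libraries. Of the 11 toxin calls 3 were kept in every setting tried, namely ALD4 and ALD3 in YPS128 and ALD6 in K11. Of the 16 base medium calls 8 were kept, those of ALD4 in 5 strains other than Y7568 and of ALD6 in Y7568, UWO.S05.22-7 and K11.

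Leaving out all SynH -HTs libraries of 1 replicate number moved several calls within strains. Without replicate 1, the calls gained beside those of ALD5 with the toxins were ALD3 in Y7568 with the toxins (1.52, limma adjusted p = 0.0329) and, in the base medium, ALD3 in Y7568 (-1.92, adjusted p = 0.00799), ALD5 in Y7568 (-1.04, adjusted p = 0.00387), and ALD5 (-0.89, adjusted p = 0.00173), ALD2 (-1.40, adjusted p = 0.0366) and HFD1 (-0.63, adjusted p = 0.0308) in UWO.S05.22-7. The rise of HFD1 in K11 in the base medium was lost (0.74, adjusted p = 0.0539). Without replicate 2, the toxin calls of HFD1 in YPS128 (0.45, adjusted p = 0.309), ALD4 in UWO.S05.22-7 (1.73, adjusted p = 0.0855) and ALD3 in NCYC3290 (1.24, adjusted p = 0.111) were lost. The base medium calls of ALD4 in Y7568 (-2.05, adjusted p = 0.0581) and ALD3 in UWO.S05.22-7 (adjusted p = 0.236) were lost as well.

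For resistance, strain means were compared, those of Y7568, YPS128 and UWO.S05.22-7 against those of NCYC361 and K11. Over 24 tests (6 members, in each of 3 media and for the toxin response) limma called 0, and 1 had an unadjusted p below 0.05. Of all features, 0% passed in SynH, in YPD or for the toxin response and 0.0337% in SynH -HTs. The test with an unadjusted p below 0.05 was ALD3 in YPD, which averaged a log2 RPKM of 0.92 in resistant strains and 2.37 in sensitive strains (adjusted p = 0.255). HFD1 in SynH -HTs was at 4.74 to 5.16 in resistant strains and 5.34 to 5.98 in sensitive strains on the log2 scale, without overlap, at the smallest two-sided exact permutation p this design allows (p = 0.1). Groups did not overlap for 28.6% of all features in SynH -HTs. The ALD3 toxin response was 0.65 to 2.09 in resistant strains and 0.06 to 0.33 in sensitive strains (exact permutation p = 0.2), and 24.0% of features did not overlap there. The ALD6 toxin response was -0.46 to -0.18 in resistant strains and overlapped that of sensitive strains, -0.22 in NCYC361 and 1.86 in K11 (exact permutation p = 0.2). In SynH itself no member separated the classes, against 37.7% of features. ALD3 and HFD1 did so in YPD, where 38.5% of features did.

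Across the 36 libraries the members were not a single group. ALD2 with ALD3 had a Pearson correlation of log2 values of 0.62, and ALD3 with HFD1 0.65, while other pairs lay between -0.09 and 0.48. These values are descriptive, since libraries share strains and media. The features most like each member were sought among 4013 with a mean of at least 10 RPKM. For ALD4 they included BAT2 (r = 0.81), a cytosolic branched-chain aminotransferase gene, which was at -3.26 in the base medium comparison and 1.43 with the toxins. For ALD5 they were the arginine synthesis genes ARG56 (0.84) and ARG8 (0.80) and the tryptophan synthesis gene TRP2 (0.83). For ALD6 they were the phosphate transporter gene PHO90 (0.81), the sphingolipid synthesis gene TSC10 (0.78) and PNS1 (0.77). ALD3 was most like IAT4 (0.86), the glutamate decarboxylase gene GAD1 (0.81) and FMP27 (0.80). ALD2 was most like YDL086W (0.88), AIF1 (0.87) and AAD10 (0.82), a putative aryl-alcohol dehydrogenase gene. The ALD2 correlations include the NCYC361 hydrolysate libraries, where ALD2 had 0 reads, and their weight in these values was not tested. HFD1 was most like the cardiolipin remodelling gene TAZ1 (0.86), PLN1 (0.85) and the Hsp90 co-chaperone gene AHA1 (0.85), and ALD4 also resembled ATG44 (0.83) and SLG1 (0.78).

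The neighbouring steps of the pathway were described by lists of genes, with changes averaged over strains and limma adjusted p. The median log2 change over all features was 0.09 with the toxins and -0.31 in the base medium, as given for the members above. The shares of all features set beside these lists are 19.1% higher and 10.6% lower with the toxins, and 6.78% higher and 38.4% lower in the base medium. Of 8 genes for making or reducing acetaldehyde (medians 0.25 with the toxins and -0.14 in the base medium), 2 rose and 1 fell with the toxins, and 3 rose and 3 fell in the base medium. PDC5, a pyruvate decarboxylase gene, was at 5.99 ± 0.24 in SynH -HTs against YPD (adjusted p = 3.3e-15), opposite in sign to ALD6, and ADH5 rose with the toxins (2.32 ± 0.14, adjusted p = 5.27e-12). PDC1, the main pyruvate decarboxylase gene, rose in the base medium (0.41, adjusted p = 2.56e-05). Of 5 tested genes of acetate and acetyl-CoA (medians 0.67 and -0.51), 3 rose and 1 fell with the toxins and 3 fell in the base medium. ATO3, of an ammonium and acetate transporter family, fell in the base medium (-3.40 ± 0.15, adjusted p = 8.65e-15), and ACH1 rose with the toxins (1.05, adjusted p = 3.21e-07). The listed ATO2 rose with the toxins (1.29, adjusted p = 0.000814) and fell in the base medium (-1.40, adjusted p = 0.000297). Its complete change was -0.12 (adjusted p = 0.749). ACS2, the acetyl-CoA synthetase gene used on glucose, was at 0.03 and -0.06 in the 2 comparisons.

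Of 13 genes of NADPH supply (medians 0.49 with the toxins and -0.08 in the base medium), 7 rose and none fell with the toxins (19.1% and 10.6% of all features), and 5 rose and 5 fell in the base medium (6.78% and 38.4% of all features). IDP1 (1.16, adjusted p = 4.99e-13) and ZWF1 (1.2, adjusted p = 2.27e-10), the glucose-6-phosphate dehydrogenase gene, rose with the toxins, and GND1 rose in the base medium (0.80, adjusted p = 6.24e-11). ALD6 fell in that comparison. Of 14 genes from polyamines to beta-alanine, pantothenate and coenzyme A (medians 0.10 and -0.32), 1 rose and 2 fell with the toxins and 7 fell in the base medium. SPE4, the spermine synthase gene, fell with the toxins (-0.58, adjusted p = 4.41e-07). The riser was FMS1, the polyamine oxidase gene whose product is the substrate of Ald2 and Ald3 (1.27, adjusted p = 1.82e-06, and -1.21 in the base medium, adjusted p = 3.59e-06). SPE3 (-0.77, adjusted p = 3.29e-09) and SPE1 (-0.53, adjusted p = 6.37e-07) fell in the base medium.

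Against those same shares and beside HFD1, 2 of 8 genes of sphingoid base breakdown rose and 1 fell with the toxins, and 4 rose and 1 fell in the base medium (medians 0.16 in both comparisons). FAA1 rose in the base medium (1.82, adjusted p = 4.38e-09), the sphingosine-phosphate lyase gene DPL1 rose with the toxins (0.78, adjusted p = 1.94e-07), and FAA4 fell in the base medium (-0.43, adjusted p = 0.00941). TSC13 was the one that fell with the toxins (-0.23, adjusted p = 0.045), and it rose in the base medium (0.28, adjusted p = 0.0109). Of 9 ubiquinone genes (medians 0.24 with the toxins and 0.03 in the base medium) 4 rose and none fell with the toxins, led by COQ6 (0.74, adjusted p = 2.77e-06), COQ9 (0.49, adjusted p = 7.28e-06) and COQ4 (0.64, adjusted p = 0.000305), and 3 fell in the base medium. Of the 4 other aldehyde dehydrogenase superfamily genes (medians 0.46 and -0.07), UGA2 (1.06, adjusted p = 4.72e-07) and PUT2 (0.63, adjusted p = 0.00204) rose with the toxins and MSC7 fell in the base medium (-0.36, adjusted p = 5.07e-06).

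Known targets of the stress regulators Msn2 and Msn4, which bind AGGGG, rose in 14 of 15 cases with the toxins, and 10 fell and 1 rose in the base medium (medians 1.48 and -0.81), where the shares of all features were 19.1% higher with the toxins and 38.4% lower in the base medium. HXK1 rose by 4.09, GPH1 by 3.41 and GLK1 by 2.42 on the log2 scale with the toxins (adjusted p = 4.06e-12, 7.05e-10 and 2.28e-10 in that order). Of 10 regulator genes tested (medians 0.39 and -0.53) 5 rose and none fell with the toxins and 7 fell in the base medium. MSN4 rose by 1.62 (adjusted p = 1.38e-08) and ADR1, an activator of glucose-repressed genes, by 1.31 (adjusted p = 4.75e-07). GIS1 fell by 1.04 in the base medium (adjusted p = 7.96e-08), and HAA1 was at 0.43 with the toxins (adjusted p = 0.148).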

How the data were processed

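The authors deposited log2 RPKM values for 36 libraries, made with Trimmomatic 0.30, Bowtie2 and HTSeq 0.6.0 per the submitters' processing notes. Per the labels' protocols, RNA was extracted with hot phenol, depleted of ribosomal RNA and made into libraries with a stranded kit. The genome build, annotation and strand setting were not given in the sources used here. The values show that 1 read had been added to every deposited count. Reads were recovered with R64 coding lengths, and 99.86% of values in 6013 matched features were whole within 0.05 reads. A further 6 rows named no gene and were left out. The NCYC361 libraries titled SynHv carry SynH as their medium label and were grouped by it.

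The deposited log2 values were tested with limma 3.58.1 (R 4.3.3), using a trended prior, 18 group means, 5927 features of mean at least 1 RPKM and Benjamini-Hochberg adjustment over all of them (threshold 0.05). Resistance classes were compared on strain means, 3 against 2, with exact permutation tests. Replicates are described as biological and from different days. Alternatives included other scalings, no filter, log2(RPKM + 1), no trended prior, the replicate block, libraries left out and strains as units. Added after the data were seen were limma's voom on recovered reads and a mean over 5 strains. The fit was tested on simulated reads, drawn independently for each library. They lacked the difference that SynH -HTs replicates share across strains, so that test does not cover it. Members, lists and motifs were chosen with earlier results of these data known. Named genes were the members, the 3 features most correlated with each over 36 libraries, and up to 3 per list with the smallest adjusted p, plus HAA1, ACS2, FMS1 and TSC13, chosen after their values were seen. Promoters and alignments were read from RefSeq R64 with Biopython 1.88.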

Additional observations from a re-analysis of the deposited data

Results flagged for a closer look

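By limma's F test, the 6 strains differed in the toxin response of ALD6 (adjusted p = 0.00882) and in the base medium response of ALD4 (adjusted p = 0.000126), ALD6 (adjusted p = 0.000244), ALD3 (adjusted p = 0.00168) and HFD1 (adjusted p = 0.0269). Of all features, 2.38% passed this test with the toxins and 29.6% in the base medium. The base medium F test was lost after median subtraction and quantile normalization for HFD1 (limma adjusted p = 0.858 and 0.333) and ALD3 (0.0513 and 0.139). The strains also differed in the complete hydrolysate response of ALD3 (adjusted p = 2e-05), ALD4 (adjusted p = 8.21e-05), ALD6 (adjusted p = 0.000158) and HFD1 (adjusted p = 0.048), which shares its samples with the others. There 26.1% of features passed. The F tests of ALD6 with the toxins and of HFD1 in both comparisons could each be lost by leaving out 1 library, as given above. The ALD6 toxin response was highest in K11 (1.86) and lowest in UWO.S05.22-7 (-0.46). Base medium responses were lowest in NCYC361 for ALD4 (-6.97) and ALD3 (-2.37) and in K11 for ALD6 (-3.44), and highest in K11 for HFD1 (0.75). In NCYC361 the median of all features in that comparison was -0.89, and in K11 it was 0.23. Its part in these differences was not tested beyond the scalings given.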

How the results depend on the processing

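Averaged calls numbered 5 in each of the 3 comparisons, and 4 to 6 (toxin) or 4 to 5 (base medium, complete) when 1 library was left out. Of all features, 29.6% passed with the toxins in the main fit, 45.2% in the base medium and 48.7% in the complete hydrolysate. With the strain as the unit, ALD2 lost its toxin call (limma adjusted p = 0.086). In that fit 2 members passed in the base medium and 3 in the complete hydrolysate. Of all features, 1297 were then higher and 735 lower with the toxins. The counts were 60 and 405 in the base medium and 322 and 1167 in the complete hydrolysate. After averaging the 6 strains within each medium and replicate number, 1 passed with the toxins, 2 in the base medium and 2 in the complete hydrolysate. Among all features, 176 were then higher and 14 lower with the toxins. The counts were 65 and 152 in the base medium and 248 and 226 in the complete hydrolysate. ALD4 and ALD6 in the base medium and ALD4 with the toxins passed in these fits and in each other averaged fit tried. In the main fit the toxin response differed among strains for 2.38% of all features. The number of members whose toxin response differed among strains was 1, with 2 after quantile normalization, median subtraction or log2(RPKM + 1), 0 without SynH -HTs replicate 2, and 0 to 1 when 1 library was left out. Median subtraction turned ALD5 in the base medium to 0.09 on average, 0.13 in YPS128, 0.15 in UWO.S05.22-7 and 0.23 in NCYC3290, HFD1 in the base medium to 0.73 in NCYC361 (adjusted p = 0.0163) and 0.24 in UWO.S05.22-7, and the toxin responses of ALD2 in UWO.S05.22-7 and ALD5 in NCYC3290 to -0.21 each and of ALD3 in NCYC361 to -0.13. Quantile normalization turned the toxin responses of ALD2 in UWO.S05.22-7 to -0.39 and in NCYC361 to -0.09, of ALD3 in NCYC361 to -0.52 and of ALD5 in NCYC3290 to -0.11, and the base medium responses of ALD5 in YPS128 to 0.06 and in NCYC3290 to 0.13 and of HFD1 in NCYC361 to 0.40. In the complete hydrolysate, quantile normalization and median subtraction turned HFD1 in UWO.S05.22-7 to 0.19 and 0.32, ALD5 in NCYC3290 to 0.02 in both and ALD2 in K11 to -0.20 and -0.06, and voom turned ALD2 in YPS128 to 0.09. The 2 scalings move the median of all features in the base medium, which was -0.31 on average. Leaving out libraries moved the following across 0, with no call on either side. The toxin responses ran from -0.51 to 0.55 for ALD2 in UWO.S05.22-7, -0.14 to 0.59 for ALD2 and -0.31 to 0.43 for ALD3 and -0.52 to 0.07 for ALD6 in NCYC361, -0.54 to 0.18 for ALD6 in Y7568, -0.20 to 0.27 for ALD5 in NCYC3290 and -0.29 to 0.30 for HFD1 in K11. ALD2 had 0 reads in every SynH and SynH -HTs library of NCYC361. Its toxin values there, with the -0.09 above, follow library size and scaling and are not a measured response. The base medium responses ran from -0.02 to 0.20 for HFD1 on average, -0.07 to 0.46 for HFD1 in YPS128, -0.04 to 0.06 for HFD1 and -0.29 to 0.18 for ALD5 in NCYC3290, and -0.06 to 0.51 for ALD5 in NCYC361. The complete responses ran from -0.46 to 0.26 for ALD2 and -0.08 to 0.45 for ALD4 in YPS128, -0.24 to 0.01 for HFD1 in UWO.S05.22-7, -0.12 to 0.08 for ALD5 in NCYC3290, -0.10 to 0.25 for HFD1 in NCYC361 and -0.11 to 0.29 for ALD2 in K11.

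With the replicate number as a block (replicate block) the counts were 5, 5 and 5 averaged calls, 11, 16 and 16 within strains and 1, 4 and 5 strain differences, where ALD2 in the complete hydrolysate (adjusted p = 0.0489) was the 1 call gained. Of all 5927 features, 1132 were then higher and 653 lower with the toxins on average. The counts were 410 and 2319 in the base medium and 863 and 2069 in the complete hydrolysate. The labels do not say that a number marks a shared day, and replicate differences of the same strain in SynH and SynH -HTs correlated at -0.38 to -0.03, so the numbers were not taken as pairs. The planned count model was not run, because the deposited unit is log2; voom on recovered reads stood in. Of the member values under alternatives, 6436 kept direction and call, 235 lost and 77 gained a call and 56 changed sign. Depth limits ALD2 and ALD3 most, with 0 to 169 and 2 to 329 reads a library.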
